A study of Mus musculus with 6 samples.

Results

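The TREM family comprises immunoglobulin-like receptors of myeloid cells that signal through small adaptor proteins. The 6 TREM genes Trem1, Trem2, Trem3, Treml1, Treml2 and Treml4, the adaptor genes Tyrobp and Hcst, and the kinase gene Syk were compared between sorted tdTomato+ bone marrow cultures of 2 genotypes. These 9 genes were selected by their symbols from 17469 genes, and they were chosen from earlier readings of the same genotype comparison, Trem1 against Trem2 above all. Their differences between genotypes are therefore given as a description, without p-values. Where they are set against the thresholds used for all genes, this only places them among those genes and is no independent test. All 9 were in the deposited table and passed the filter on low counts. RNA was sequenced from tdTomato+ cells sorted out of BMSC cultures (adherent marrow stromal cell cultures) of untreated 6-month-old mice. The control genotype was Ocn-Cre;Ai9, with 3 libraries, and the other was TgAPPswe;Ocn-Cre;Ai9 (TgAPPsweOCN), also with 3 libraries. Both genotypes carry Cre recombinase under the osteocalcin promoter and the Ai9 allele, which makes a cell red once Cre has acted. The TgAPPsweOCN mice also carry human APP with the Swedish mutation behind a stop cassette that Cre removes and under the general CAG promoter. The number of mice behind each library is not given in the sources used here, so the errors below measure the spread between libraries.

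TREM1 and TREM3 have short tails and a charged residue in the membrane, through which they pair with DAP12, the product of Tyrobp. DAP12 carries an ITAM, a tyrosine motif that Src family kinases phosphorylate and that then recruits the kinase SYK. TREM1 is known to amplify inflammatory responses of neutrophils and monocytes, whereas TREM2 binds lipids and lipoproteins and favours phagocytosis, survival and a restrained cytokine response in macrophages, osteoclasts and microglia. TREM2 can also use DAP10, the product of Hcst, which binds phosphoinositide 3-kinase. In bone, DAP12 and TREM2 are needed for normal osteoclasts, and loss of either in humans causes Nasu-Hakola disease, with bone cysts and dementia. Rare variants of TREM2 raise the risk of Alzheimer's disease.

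The TREM genes lie side by side on chromosome 17 of the mm10 build, within 134 kb, and all 6 are on the plus strand. Trem1 lies at chr17:48232768-48246924 and Trem2 at chr17:48346401-48354147 in the GENCODE annotation. Tyrobp (chr7:30413760-30417585, plus strand) and Hcst (chr7:30417712-30419854, minus strand) end next to each other, with 126 bases between them. Syk lies at chr13:52583173-52648792. Promoter windows of 250 bases before an annotated start are printed for Trem2, Treml1, Trem1, Treml4 and Syk. They come from RefSeq on GRCm38.p6, the same assembly as mm10. Trem3, Treml2 and Tyrobp had no entry there. The window of Hcst, which held no match to any motif named below, is not printed. Trem2 and Treml1 are shown because they had the lowest levels in TgAPPsweOCN relative to control, Trem1 and Treml4 because their groups overlapped, and Syk because it was higher. The windows are chr17:48346151-48346400 for Trem2, chr17:48359666-48359915 for Treml1, chr17:48232489-48232738 for Trem1, chr17:48264045-48264294 for Treml4, and chr13:52583187-52583436 and chr13:52596632-52596881 for the upstream and downstream starts of Syk, each on the plus strand. Capitals mark matches to the letters GAGGAA (PU.1, a myeloid transcription factor) or TGANTCA (AP-1) on either strand.
Trem2: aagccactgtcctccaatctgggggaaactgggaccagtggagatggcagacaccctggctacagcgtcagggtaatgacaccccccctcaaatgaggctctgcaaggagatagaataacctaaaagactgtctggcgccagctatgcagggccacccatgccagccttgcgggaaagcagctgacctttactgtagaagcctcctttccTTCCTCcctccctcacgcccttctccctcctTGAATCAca
Treml1: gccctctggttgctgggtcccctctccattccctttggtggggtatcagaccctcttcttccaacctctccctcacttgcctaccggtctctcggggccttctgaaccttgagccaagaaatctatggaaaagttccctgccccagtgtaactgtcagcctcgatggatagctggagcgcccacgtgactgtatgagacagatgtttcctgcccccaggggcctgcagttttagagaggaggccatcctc
Trem1: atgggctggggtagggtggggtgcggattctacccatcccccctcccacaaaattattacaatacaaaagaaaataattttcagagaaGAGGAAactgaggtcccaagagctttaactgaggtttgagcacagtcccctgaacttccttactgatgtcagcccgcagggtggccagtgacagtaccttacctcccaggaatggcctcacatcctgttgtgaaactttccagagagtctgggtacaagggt
Treml4: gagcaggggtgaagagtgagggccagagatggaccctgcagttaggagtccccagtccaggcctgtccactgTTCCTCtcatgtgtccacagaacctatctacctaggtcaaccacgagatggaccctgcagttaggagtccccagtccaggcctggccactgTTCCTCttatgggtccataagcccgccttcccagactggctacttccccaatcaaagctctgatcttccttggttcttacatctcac
Syk, upstream start: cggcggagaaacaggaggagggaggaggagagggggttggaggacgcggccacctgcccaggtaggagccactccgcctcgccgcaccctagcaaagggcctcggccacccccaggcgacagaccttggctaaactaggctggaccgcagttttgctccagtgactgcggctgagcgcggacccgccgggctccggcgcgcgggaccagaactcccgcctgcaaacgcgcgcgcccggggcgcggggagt
Syk, downstream start: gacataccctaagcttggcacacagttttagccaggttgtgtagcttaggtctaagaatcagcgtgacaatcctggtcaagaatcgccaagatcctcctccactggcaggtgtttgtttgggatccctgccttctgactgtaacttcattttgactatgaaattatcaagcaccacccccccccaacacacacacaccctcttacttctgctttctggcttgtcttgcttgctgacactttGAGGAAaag
The PU.1 letters occurred once in the Trem2 window, beginning 40 bases before the start, once in the Trem1 window, 162 bases before it, and in 2 places in the Treml4 window. In Syk it occurred 9 bases before the downstream start and not in the window of the upstream start. Over all 32851 windows of this length, 23.3% held a PU.1 match. The AP-1 letters occurred once, beginning 9 bases before the Trem2 start, and 6.75% of all windows held a match. The letters TTGCNNAA (C/EBP, 9.56% of all windows) and the NF-kB motif (7.25%) had no match in the 6 printed windows, and no match overlapped another.

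Estimated counts summed to between 19340810 and 22037840 per library, and 3 counts, the smallest level taken as detectable, came to between 0.136 and 0.155 CPM (counting error only). Differences are given as log2 fold changes of TgAPPsweOCN over control from edgeR after TMM scaling, with standard errors. Levels are given as FPKM, which corrects for gene length but lacks the TMM scaling. TMM factors were 1.07 to 1.08 in control and 0.910 to 0.944 in TgAPPsweOCN. FPKM ratios of TgAPPsweOCN to control therefore stand somewhat lower than the fold changes given beside them. A gene was counted as up- or down-regulated where the adjusted p was 0.05 or less and the log2 fold change was 1 or more, or -1 or less. The first principal component, with 84% of the variance, separated the genotypes. The second, with 6.11%, spread the TgAPPsweOCN libraries, which scored -26.0, 24.6 and 3.0 in replicates 1 to 3 against -3.9 to 2.8 in the controls. The study takes the sorted cells for OB (osteoblast) progenitors, but markers of macrophages were far more abundant in them than markers of that lineage. The summed FPKM of 10 macrophage markers was 13211 to 13581 in control and 9226 to 13353 in TgAPPsweOCN libraries, against 129 to 151 and 98.2 to 165 for 12 markers of the osteoblast lineage and stroma. Bglap, which encodes osteocalcin, was at 0.857 ± 0.461 FPKM (SD over 3 libraries) in control cells and at 0.273 ± 0.25 FPKM in TgAPPsweOCN cells. In such bulk libraries, fewer cells of a kind and less RNA per cell cannot be told apart.

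Of the 9 genes, 3 met the thresholds upward (Trem3, Treml2 and Syk) and 2 downward (Trem2 and Treml1). Over all 12701 genes tested, 8.9% met them upward and 9.2% downward, 18.1% in all. That is 1130 genes up and 1169 down, and with scaling by library size only it was 846 up and 1732 down. The levels of 6 of the 9 genes (Trem2, Treml1, Trem3, Tyrobp, Hcst and Syk) did not overlap between the genotypes, as was the case for 69.7% of all genes tested. Since the genes were picked with this comparison known, nothing is read from these counts.

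**Figure D1:**
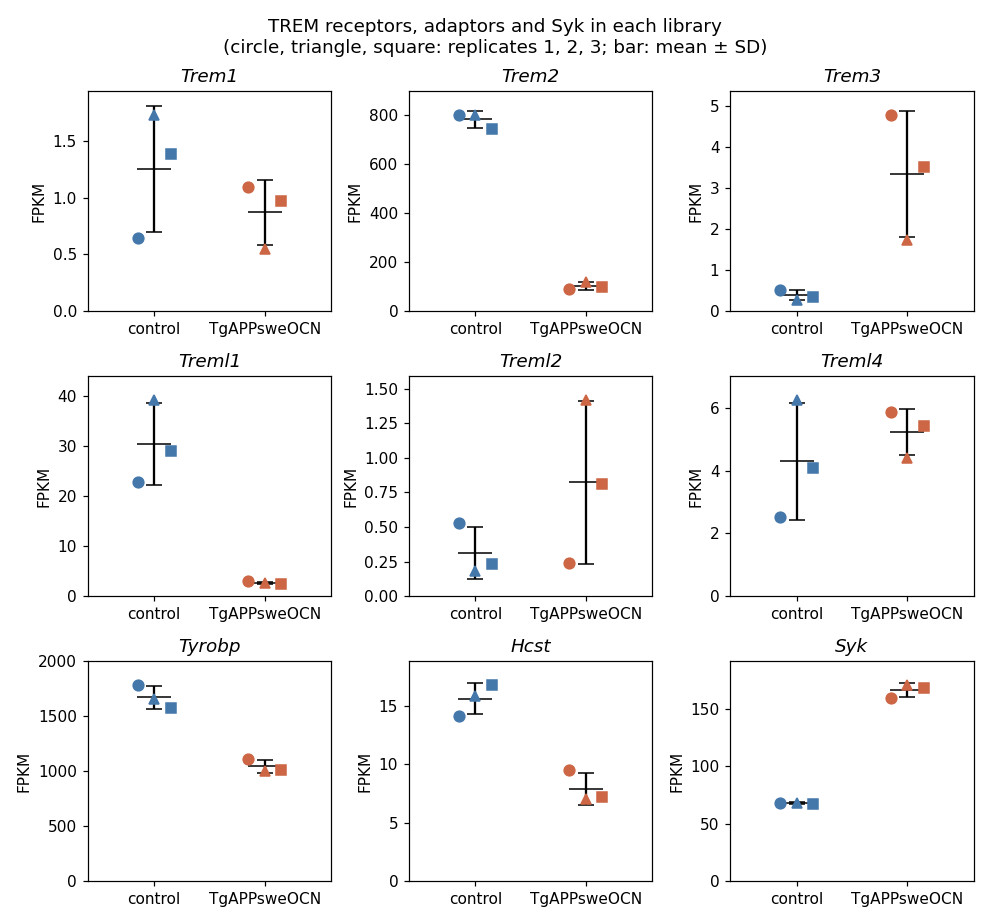
FPKM of each of the 9 genes in the 3 control (blue) and 3 TgAPPsweOCN (orange) libraries, with the mean and SD as black bars and an axis from 0 in each panel. Trem2 and Treml1 averaged 783 and 30.4 in control and 103 and 2.65 in TgAPPsweOCN, Syk stood at 68.1 against 166, and Trem1, Treml2 and Treml4 overlapped.

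Trem2 was by far the most abundant TREM receptor in control cells. Its counts were 16136, 16258 and 14758 in control and 2024, 2703 and 2229 in TgAPPsweOCN. Each control library therefore stood well above each TgAPPsweOCN library. The level was 783 ± 33.3 FPKM (mean ± SD, n = 3) in control and 103 ± 15.7 FPKM in TgAPPsweOCN. After TMM scaling the log2 fold change was -2.71 ± 0.0993 (SE), or 6.53 times lower in TgAPPsweOCN. It held 94.4% to 96.7% of the summed FPKM of the 6 receptors in control and 85.7% to 91.8% in TgAPPsweOCN.

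Trem1 was expressed at a low level in both genotypes. Its counts were 36, 99 and 79 in control and 72, 35 and 62 in TgAPPsweOCN. The groups overlapped, with the lowest library of each genotype at nearly the same count and the highest in control. The level was 1.25 ± 0.557 FPKM in control and 0.870 ± 0.284 FPKM in TgAPPsweOCN, and the log2 fold change was -0.28 ± 0.387 (SE). Without control replicate 2 the log2 fold change was 0.017, so no direction can be given for Trem1. A processed pseudogene is annotated on the other strand within Trem1, and whether reads were counted by strand is not given in the sources used here.

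Trem1 was therefore compared with Trem2 within each library. The log2 ratio of Trem1 to Trem2 FPKM was -10.29, -8.86 and -9.08 in control and -6.36, -7.77 and -6.69 in TgAPPsweOCN. All TgAPPsweOCN ratios exceeded all control ratios. The means were -9.41 ± 0.773 (SD) and -6.94 ± 0.740, a difference of 2.47, which ran from 2.03 to 2.88 when 1 library was left out. Trem2 still exceeded Trem1 in every library, by 464 to 1253 times in control and by 82 to 219 times in TgAPPsweOCN. Of the genes in the ratio, Trem2 differed without overlap and Trem1 overlapped.

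Trem3, which in mice is a further activating receptor that pairs with DAP12, had the highest log2 fold change of the 9 genes. Its counts were 9, 5 and 6 in control and 103, 37 and 74 in TgAPPsweOCN, so that the lowest TgAPPsweOCN library held more than 4 times the counts of the highest control library. The level was 0.383 ± 0.123 FPKM in control and 3.34 ± 1.54 FPKM in TgAPPsweOCN, and the log2 fold change was 3.46 ± 0.467 (SE). The control level was close to the limit of detection, and Trem3 passed the filter on low counts only through the TgAPPsweOCN libraries. The size of the fold change is therefore uncertain, and it was 1.59 with limma on log2(FPKM + 1). Trem3 exceeded Trem1 in every TgAPPsweOCN library, with log2 FPKM ratios of 2.14, 1.65 and 1.86, and lay below it in every control library, with ratios of -0.30, -2.63 and -1.98. Trem1 and Trem3 together came to 1.16 to 2.01 FPKM in control and 2.28 to 5.88 FPKM in TgAPPsweOCN.

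Treml1, whose product TLT-1 lies in platelet granules and carries an inhibitory tyrosine motif, had the lowest log2 fold change of the 9 genes. Its counts were 523, 907 and 657 in control and 76, 67 and 60 in TgAPPsweOCN. No control library came near the TgAPPsweOCN libraries. The level was 30.4 ± 8.26 FPKM in control and 2.65 ± 0.291 FPKM in TgAPPsweOCN, and the TMM-scaled log2 fold change was -3.30 ± 0.215 (SE). Of 9 platelet and megakaryocyte markers, 4 were tested. Pf4 fell, from 565 ± 60.5 to 184 ± 75.6 FPKM (adjusted p = 0.00169), and so did Gp1ba, from 0.893 ± 0.125 to 0.303 ± 0.0603 FPKM (adjusted p = 0.00141), while Ppbp (adjusted p = 0.313) and Itga2b (adjusted p = 0.362) did not meet the thresholds. Gp9 and Gp6, too low to be tested, had higher counts in TgAPPsweOCN, at 5, 5 and 6 against 11, 9 and 18 for Gp9 and at 0, 0 and 1 against 7, 4 and 9 for Gp6. Clec1b, also too low, had lower ones on average, with overlap, at 17, 9 and 14 in control and 8, 3 and 10 in TgAPPsweOCN. The summed level of that list was 528 to 639 FPKM in control and 118 to 267 FPKM in TgAPPsweOCN, nearly all of it Pf4, and 7 of the 9 markers had at most 1 FPKM in every library. None of the 9 was at 0 throughout, and their part in the Treml1 difference was not tested.

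Treml2, a receptor of lymphoid and myeloid cells, varied more between libraries of a genotype than any other of the 9 genes. Its counts were 46, 16 and 20 in control and 24, 139 and 80 in TgAPPsweOCN. TgAPPsweOCN replicate 1 lay within the control range and the other 2 lay above it. The log2 fold change was 1.61 ± 0.606 (SE). It was 2.21 without control replicate 1 and 2.04 without TgAPPsweOCN replicate 1, and each met both thresholds. It was 0.99 without TgAPPsweOCN replicate 2 and 1.61 without TgAPPsweOCN replicate 3, neither of which met both. The values without control replicate 2 (1.33) and without control replicate 3 (1.43) did not meet both either. With the replicate number as a block it was 1.47, again without meeting both. Trem3 and Treml2 ran in opposite order over the TgAPPsweOCN libraries, with Trem3 highest and Treml2 lowest in replicate 1. The same libraries stood at opposite ends of the second principal component. The summed macrophage marker levels of TgAPPsweOCN replicates 1 to 3 were 13353, 9226 and 11048 FPKM. Most of that sum was Lyz2, at 8724, 5379 and 6830 FPKM, and Adgre1, at 2100, 1462 and 1766 FPKM. Csf1r and Cd14 had the same order as the sum. Fcgr1 (120, 167 and 139 FPKM) and Mertk (12.3, 19.7 and 16.9 FPKM) had the reverse order, so the markers did not share 1 order. Of 5 B cell markers, 4 had at most 1 FPKM in every library. The summed level of the 5 was 0.89 to 1.45 FPKM in control and 3.28 to 3.70 FPKM in TgAPPsweOCN, nearly all of it Cd79b (adjusted p = 0.000127). The summed level of 10 neutrophil markers had the same order as Treml2 within each genotype, at 54.3, 13.6 and 30.4 FPKM in control replicates 1 to 3 and at 19.1, 52.2 and 35.5 FPKM in TgAPPsweOCN replicates 1 to 3. The part of B cells and neutrophils in the Treml2 values was not tested.

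Treml4, a DAP12-coupled receptor of macrophages and dendritic cells, had counts of 84, 209 and 134 in control and 219, 162 and 198 in TgAPPsweOCN. Only control replicate 2 reached the TgAPPsweOCN range. The log2 fold change was 0.50 ± 0.285 (SE), which misses the thresholds. Control replicate 1 was the lowest control library for Trem1, Treml1 and Treml4 and the highest for Trem3 and Treml2. All 6 dendritic cell markers had at most 1 FPKM in every library, with sums of 0.55 to 0.80 FPKM in control and 0.90 to 1.11 FPKM in TgAPPsweOCN. Of the 2 that were tested, Xcr1 rose (log2 fold change 1.88, adjusted p = 0.000133, with fractional counts in every library). Zbtb46 had a log2 fold change of 0.05 (adjusted p = 0.936). Among those too low to be tested, Clec9a had counts of 9, 11 and 7 in control and 2, 2 and 3 in TgAPPsweOCN, and Flt3 had 4 to 6 in control and 7 to 27 in TgAPPsweOCN. The part of dendritic cells in the Treml4 values was not tested.

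The adaptor genes had smaller differences than Trem2 and Treml1. Tyrobp counts were 17444, 16389 and 15215 in control and 12280, 10976 and 10934 in TgAPPsweOCN. Each control library exceeded each TgAPPsweOCN library, and the difference was far smaller than that of Trem2. The level was 1673 ± 107 FPKM in control and 1045 ± 61.1 FPKM in TgAPPsweOCN. The TMM-scaled log2 fold change was -0.46 ± 0.0765 (SE), and it was -0.68 with limma on log2(FPKM + 1). Tyrobp thus stood at 2.07 to 2.23 times the Trem2 level in control and at 8.36 to 12.5 times in TgAPPsweOCN, in FPKM. Hcst was far less abundant than Tyrobp, with 93.7 to 126 FPKM of Tyrobp per FPKM of Hcst in control and 117 to 143 in TgAPPsweOCN. Its counts were 103, 117 and 121 in control and 78, 57 and 58 in TgAPPsweOCN, without overlap. The log2 fold change of Hcst was -0.76 ± 0.178 (SE), so both neighbouring adaptor genes were lower in TgAPPsweOCN without reaching the fold change threshold.

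Syk was the most uniform of the 9 genes within a genotype. Its counts were 6614, 6671 and 6365 in control and 17556, 18673 and 18217 in TgAPPsweOCN. The genotypes were far apart, and the controls varied by 1.08% of their mean FPKM (SD over mean). The level was 68.1 ± 0.737 FPKM in control and 166 ± 6.20 FPKM in TgAPPsweOCN, and the TMM-scaled log2 fold change was 1.53 ± 0.0522 (SE). Syk was thus higher and the adaptor gene Tyrobp lower in TgAPPsweOCN, with 0.0384 to 0.0427 FPKM of Syk per FPKM of Tyrobp in control and 0.143 to 0.170 in TgAPPsweOCN.

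**Figure D2:**
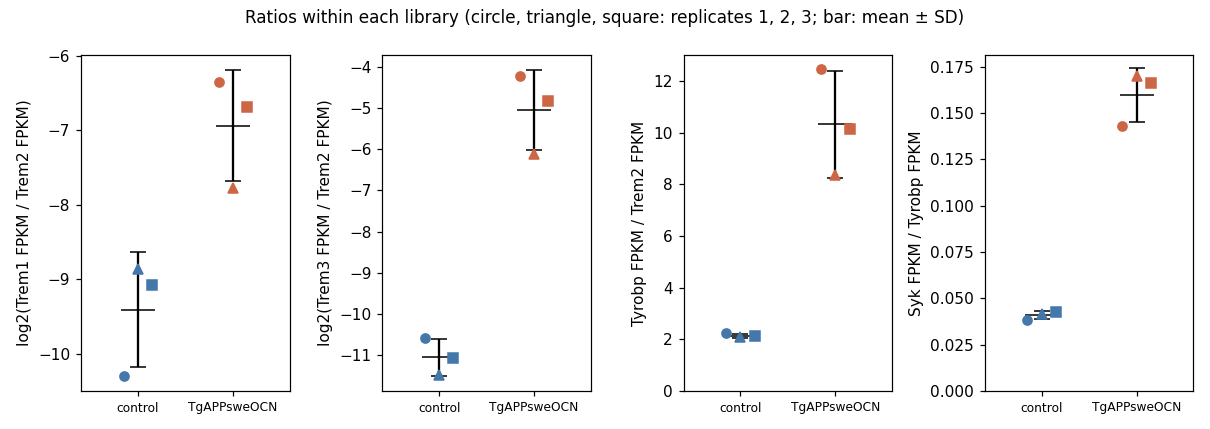
Ratios of FPKM within each of the 6 libraries, by genotype, with mean and SD as black bars. The log2 ratios on the left were higher in all TgAPPsweOCN libraries, and the linear ratios on the right were at most 2.23 in control and at least 8.36 in TgAPPsweOCN for Tyrobp over Trem2, and at most 0.0427 and at least 0.143 for Syk over Tyrobp.

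The values were also read in the order of the genes along the chromosome, with no test of that order. Trem3, Treml4 and Treml2 are adjacent and had log2 fold changes of 3.46, 0.50 and 1.61, of which Treml4 did not meet the thresholds and Treml2 met them in 6 of 14 alternatives. Before them lies Trem1, at -0.28 and without a stable direction, and A530064D06Rik (synonym Trem4), just before Trem1, had a log2 fold change of 0.99 (adjusted p = 0.00136). The 3 genes after Treml2, namely B430306N03Rik (synonym Treml6), Trem2 and Treml1, had log2 fold changes of -0.45, -2.71 and -3.30. The level of B430306N03Rik was 8.49 FPKM in control and 5.37 FPKM in TgAPPsweOCN (adjusted p = 0.0243), a change below the fold change threshold. Beyond the cluster, Nfya (-0.19, adjusted p = 0.0227) and Oard1 (-0.36, adjusted p = 0.0589) on the far side, and Foxp4 (0.23, adjusted p = 0.0483) and Mdfi (-0.91, adjusted p = 0.189) on the near side, stayed inside the threshold. The other TREM gene, 9830107B12Rik (synonym Trem5), and Apobec2, Tspo2 and Unc5cl had too few counts to be tested, and 1700122O11Rik was not analysed here.

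**Figure D3:**
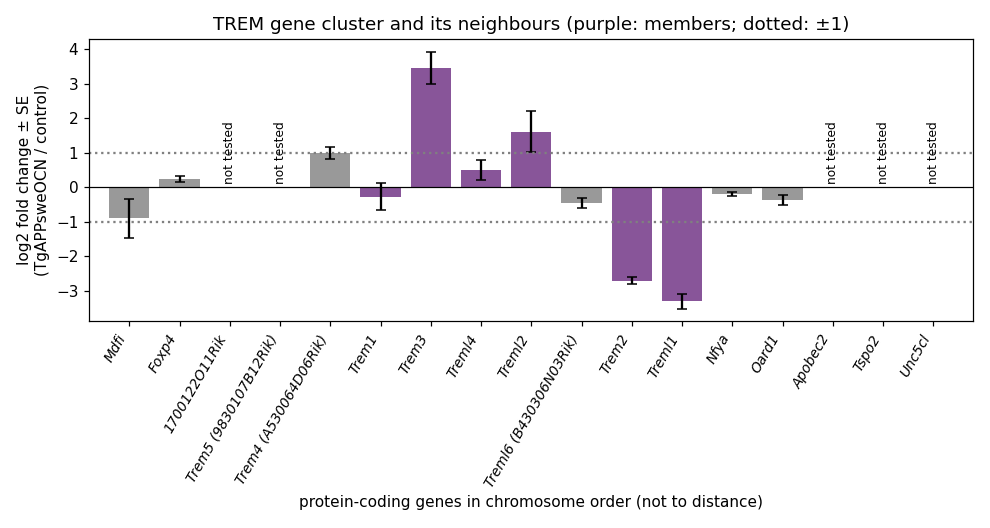
Log2 fold change with its standard error for protein-coding genes in their order on chromosome 17, not to distance, with the 6 TREM members in purple and other genes in grey. Members from Trem3 to Treml2 lay above 0, Trem2 and Treml1 lay at -2.71 and -3.30, and the tested flanking genes lay within 1 of 0.

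Other receptors that use DAP12 or DAP10, or join TREM2 at the membrane, were listed by their known role. This list and those below were drawn up with earlier results of these data known. Their counts and adjusted p values are therefore no independent test. Of 12 listed, 8 were tested, 4 rose and 1 fell, beside 18.1% of all genes tested that did either. Cd300e, an activating receptor of monocytes, rose from 4.51 ± 0.834 to 163 ± 11.9 FPKM (log2 fold change 5.42, adjusted p = 2e-08). Cd300lb, an activating receptor of the same family, fell from 106 ± 3.68 to 22.3 ± 0.576 FPKM (log2 fold change -2.04, adjusted p = 5.07e-08). Sirpb1a (2.55, adjusted p = 4.53e-05), Sirpb1b (1.51, adjusted p = 0.000796) and Pilrb1 (1.04, adjusted p = 0.0032) also rose, but these genes have near-identical copies and held fractional counts in 5 or 6 libraries, so reads may have been split between copies. Clec5a, an activating lectin of myeloid cells, had a log2 fold change of -0.17 (adjusted p = 0.435), and Pilrb2 one of 0.50 (adjusted p = 0.0615). Plxna1, a plexin that forms a complex with TREM2 in osteoclasts and dendritic cells, had one of -0.70 (adjusted p = 0.000455). Siglech, Siglec15 and Klrk1 had too few counts to be tested.

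The listed receptors and the TREM family together summed to 989 to 1061 FPKM in control and 431 to 452 FPKM in TgAPPsweOCN. Trem2 made up 75.2% to 77.2% of that sum in control and 19.8% to 27.4% in TgAPPsweOCN. Cd300e made up 0.352% to 0.519% in control and 34.6% to 38.7% in TgAPPsweOCN, more than Trem2 in each of the 3 libraries. Cd300lb held 9.97% to 10.6% in control and 4.98% to 5.17% in TgAPPsweOCN. Without the TREM genes the listed receptors came to 209 to 211 FPKM in control and 307 to 348 FPKM in TgAPPsweOCN.

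**Figure D4:**
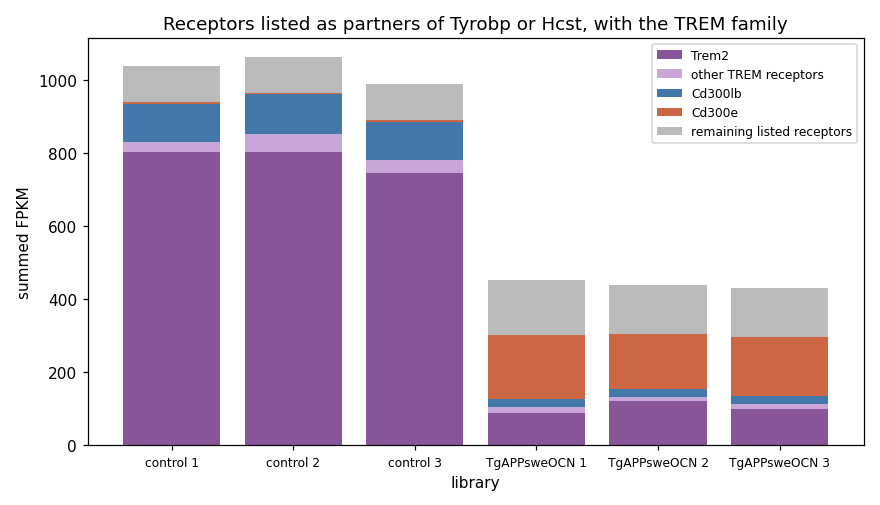
Summed FPKM of the 6 TREM receptors and the other listed partners of Tyrobp or Hcst in each of the 6 libraries, stacked by gene or group. Trem2 filled over 75% of each control bar, and Cd300e filled 34.6% to 38.7% of each TgAPPsweOCN bar.

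Among other ITAM adaptors, Fcer1g, the Fc receptor gamma chain, rose from 1879 ± 140 to 3497 ± 264 FPKM (log2 fold change 1.11, adjusted p = 5.19e-06). It stood at 1.10 to 1.14 times the Tyrobp level in control and at 3.06 to 3.77 times in TgAPPsweOCN. Cd247, the zeta chain of T and NK cells, fell (adjusted p = 0.0161) at a level of at most 0.26 FPKM on average, and passed the filter on low counts only through the control libraries. All 5 T and NK cell markers in the table had at most 1 FPKM in every library, with sums of 0.47 to 0.64 FPKM in control and 0.42 to 0.56 FPKM in TgAPPsweOCN.

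Kinases that act on the ITAM or beside SYK were read as a further list. Of 8 Src and Tec family kinases tested, 3 rose and none fell, where 8.9% of all genes tested rose and 9.2% fell, with a median log2 fold change of 0.50 against -0.02 over all genes tested. Among them, Lyn rose by 1.23 on the log2 scale (adjusted p = 5.3e-07, with fractional counts in every library). Fgr, at 1.85 ± 0.173 FPKM in control, rose by 1.83 on that scale (adjusted p = 3.65e-06). Btk (0.30), Fyn (0.56) and Tec (-0.997) met the adjusted p but not the fold change threshold. Of all genes tested, 64.0% met the adjusted p, whatever their fold change.

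Downstream of SYK, 3 of 17 tested genes rose and none fell, a share called close to the 18.1% of all genes tested, with a median log2 fold change of 0.30. Lcp2, the scaffold SLP-76, rose from 39.4 ± 1.11 to 122 ± 5.20 FPKM (log2 fold change 1.84, adjusted p = 6.93e-08). Pik3cg, a catalytic subunit of phosphoinositide 3-kinase, rose by 1.28 (adjusted p = 3.66e-07) on the log2 scale. The exchange factor Vav1 rose from 78.2 ± 0.581 to 155 ± 1.9 FPKM (adjusted p = 3.12e-07, with fractional counts in 3 libraries). Blnk (0.99) and Pik3ap1 (0.94) lay just under the upper threshold and Vav3 (-0.86) above the lower one, and Card9 had a log2 fold change of -0.40. Plcg2, a phospholipase whose variants also modify the risk of Alzheimer's disease, had a log2 fold change of 0.32 (adjusted p = 0.000748). Prkcd and Grb2, the other abundant genes of the list beside Pik3ap1, had log2 fold changes of 0.10 (adjusted p = 0.104) and 0.26 (adjusted p = 0.00272).

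Of 11 tested genes that restrain ITAM signalling, 1 rose and 1 fell, close to the 18.1% of all genes tested that met the thresholds, and the median log2 fold change was 0.15. Sla, an adaptor that lowers the amount of ITAM receptors at the surface, rose from 13.1 ± 1.14 to 94 ± 7.98 FPKM (log2 fold change 3.06, adjusted p = 6.91e-08). Sla2 fell (adjusted p = 0.0124) at a level of at most 0.23 FPKM on average, and passed the filter on low counts only through the control libraries. Inpp5d, which encodes the phosphatase SHIP1, had a log2 fold change of -0.06 (adjusted p = 0.383), Ptpn6, which encodes SHP-1, one of 0.52 (adjusted p = 0.000133), and Dok3 one of 0.34 (adjusted p = 0.00336).

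Ligands of the receptors also differed. Of 8 genes listed for ligands and sheddases, 7 were tested, 1 rose and 3 fell, beside the same 18.1% over all genes. Apoe, which encodes an apolipoprotein that TREM2 binds, fell from 13364 ± 1478 to 2463 ± 149 FPKM (log2 fold change -2.23, adjusted p = 3.12e-07). Lgals3, which encodes galectin-3, a further TREM2 ligand, fell from 889 ± 97.0 to 221 ± 13.4 FPKM (log2 fold change -1.79, adjusted p = 7.14e-07). Clu, which encodes an apolipoprotein that TREM2 binds, rose from 0.80 ± 0.177 to 2.45 ± 1.25 FPKM (log2 fold change 1.80, adjusted p = 0.0042). On the TREM1 side, Cirbp fell by 1.04 (adjusted p = 0.000368) on the log2 scale, Hmgb1 had a log2 fold change of -0.82 (adjusted p = 3.45e-06, with fractional counts in every library) and Pglyrp1 was too low to be tested. The sheddase genes Adam10 (-0.19, adjusted p = 0.102) and Adam17 (0.52, adjusted p = 0.000423), whose products cut TREM2 off the surface, stayed inside the threshold.

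The genes that microglia raise in a TREM2-dependent way around plaques were read as a list of 11. Of these, 3 fell and none rose, where 9.2% of all genes tested fell, and the median log2 fold change was -0.70. Clec7a, the beta-glucan receptor Dectin-1, fell from 56.2 ± 10.8 to 7.25 ± 0.361 FPKM (log2 fold change -2.74, adjusted p = 9.81e-07). The tetraspanin gene Cd9 fell by 2.28 (adjusted p = 2.24e-06) and the inhibitory receptor gene Lilrb4a by 1.09 (adjusted p = 4.23e-06, with fractional counts in every library), on the log2 scale. Lpl, which encodes lipoprotein lipase, had a log2 fold change of -0.06 (adjusted p = 0.685) and Ctsl, which encodes cathepsin L, one of 0.44 (adjusted p = 0.0021). The list was described in brain microglia and not in cultured marrow cells.

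Of 9 genes of osteoclast costimulation and fusion, 7 were tested, 3 rose and 1 fell, again beside 18.1% over all genes. Tnfrsf11a, which encodes RANK, rose from 17.8 ± 0.492 to 38.5 ± 6.04 FPKM (log2 fold change 1.31, adjusted p = 5.96e-06), and Acp5, tartrate-resistant acid phosphatase, from 4.68 ± 1.09 to 34.7 ± 11.9 FPKM (3.12, adjusted p = 2.73e-05). Ocstamp, the third of these, had counts of 0, 0 and 1 in control and 30, 31 and 54 in TgAPPsweOCN. It passed the filter only through the TgAPPsweOCN libraries and so had to differ. Atp6v0d2, a proton pump subunit needed for fusion, fell from 34.9 ± 10.5 to 5.37 ± 0.408 FPKM (-2.38, adjusted p = 1.64e-05). Nfatc1, the transcription factor that ITAM signals switch on in osteoclasts, had a log2 fold change of -0.23 (adjusted p = 0.0121). Oscar, a receptor that signals through the Fc receptor gamma chain in osteoclasts, and Calcr were too low to be tested.

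**Figure D5:**
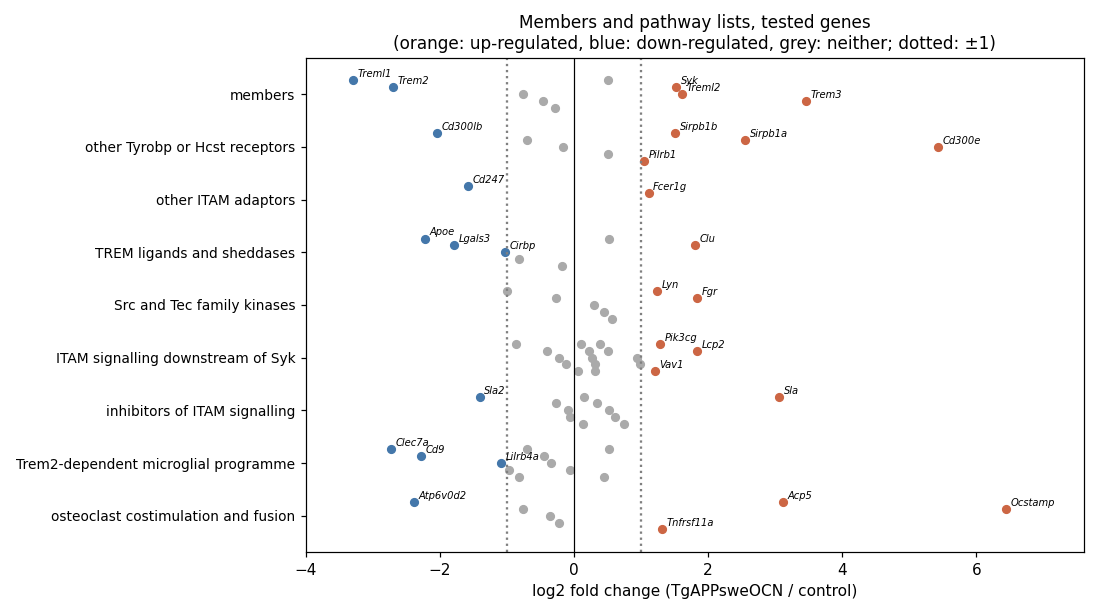
Log2 fold change of the tested genes of the 9 members and of the 8 pathway lists, 1 point for each gene reported here, with up-regulated genes in orange, down-regulated genes in blue and others in grey. Genes downstream of Syk had 3 orange points and no blue ones, and the Trem2-dependent list had 3 blue points and no orange ones.

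Over the 8 pathway lists, 16 of 71 tested genes rose and 10 fell (Ocstamp, Cd247 and Sla2, with the limit given above, included). Of all genes tested, 8.9% rose and 9.2% fell. The median log2 fold change of the lists was 0.15. The balance of rises and falls depends on the scaling, since 13 rose and 15 fell with scaling by library size only. With that scaling 846 of all genes rose and 1732 fell. Marker genes of macrophages, which express most of the genes above, did not move in 1 direction. Of 10 tested, Adgre1 (1.89), Itgam (1.26) and Fcgr1 (1.30) rose and Csf1r (-1.49), Cd68 (-1.26) and Mertk (-1.39) fell. Of all genes tested, 18.1% did either. Lyz2, the most abundant, had a log2 fold change of -0.16 (adjusted p = 0.418). Neutrophils are the other main source of Trem1 and Trem3. The summed level of 10 neutrophil markers overlapped between genotypes, at 13.6 to 54.3 FPKM in control and 19.1 to 52.2 FPKM in TgAPPsweOCN, and the defining marker Ly6g was at 0 in the control libraries and at 0.04 FPKM on average in TgAPPsweOCN. Of these markers 8 were tested and 1, Camp, met the thresholds, with counts of 9, 1 and 4 in control and 21, 54 and 37 in TgAPPsweOCN. Camp passed the filter only through the TgAPPsweOCN libraries. In TgAPPsweOCN replicates 1 to 3 the neutrophil sums were 19.1, 52.2 and 35.5 FPKM, and Trem3 counts were 103, 37 and 74. The part of neutrophils in the Trem3 and Trem1 values was not tested. Of the osteoblast lineage and stromal markers, 10 were tested and none met the thresholds. Adjusted p values of 0.00707 for Sp7 and 0.00139 for Alpl came with smaller fold changes.

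Finally, the genes closest in pattern to Trem1 and Trem2 over the 6 libraries were taken by Pearson's r of log2 CPM, among 11113 genes of sufficient level. Nearest to Trem2 were Cenpa (r = 0.9999), Nudt14 (0.9999) and Hmgn1 (0.9997), which also stood lower in every TgAPPsweOCN library. Nearest to Trem1 were Taf4b (r = 0.994), Aph1b (0.989) and Tubb2b (0.983), none of which differed between genotypes beyond the thresholds. These values describe 6 points that share libraries and, for Trem2, a large genotype difference.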

How the data were processed

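Total RNA of FACS-sorted tdTomato+ cells was sequenced by the authors on a DNBSEQ platform. Reads of rRNA and low-quality or adaptor reads were removed and clean reads were mapped with HISAT2. Per the labels, HISAT2 2.0.4, Bowtie2 2.2.5, RSEM 1.2.12, DESeq2 1.4.5 and mm10 were used, without stated roles. The authors deposited estimated counts, fractional for 13.3% to 14.4% of genes per library, and FPKM values rounded to 2 decimals. None of the 9 genes held fractional counts. Some other genes named here did, and not every such gene is marked. A further table, which repeats the FPKM values and adds the authors' log ratio and p-value, was not used.

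Counts were rounded to whole numbers. Genotypes were compared by the quasi-likelihood test of edgeR 4.0.16 (R 4.3.3), after filterByExpr and TMM scaling, with Benjamini-Hochberg adjustment over all genes tested and no replicate block. Standard errors are the log2 fold change divided by the square root of F. Alternatives used DESeq2 1.42.0 and limma 3.58.1. The fits were tested on simulated data. Members, lists, thresholds and motifs were chosen with earlier results of these data known.

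Genes named are the 9 members, from each pathway list every called gene and otherwise the most abundant, the most abundant markers, the neighbours of the cluster (5 on each side) and the 3 genes most like Trem1 and Trem2. Further listed genes were named after their values were seen. The values of 1 listed gene are not reported here. Promoters came from RefSeq (entries for Trem1, Trem2, Treml1, Treml4, Hcst and Syk). Tables were made in Python 3.11.15 with pandas 2.3.3 and plots with matplotlib 3.10.9.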

Additional observations from a re-analysis of the deposited data

How the results depend on the processing

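In the 14 alternatives, which include leaving out each library in turn, Trem2 (log2 fold changes of -2.93 to -2.62) and Treml1 (-3.52 to -3.08) stayed below and Syk (1.28 to 1.54) above the thresholds. Trem3 ran from 1.59 to 3.78 and stayed above them wherever it was tested, but had too few counts when at least 10 in every library were required. Treml2 no longer met the thresholds in 8 of 14 alternatives, among them the replicate block (1.47), library size only (1.41) and limma on log2(FPKM + 1) (0.43) or log2(FPKM + 0.1) (1.0). Tyrobp (-0.68 to -0.42), Hcst (-0.98 to -0.67) and Treml4 (0.22 to 0.87) kept their sign and met the thresholds in no alternative. Trem1 ran from -0.61 to 0.017 when 1 library was left out, and the positive value came without control replicate 2. With limma on log2(FPKM + 1), 593 genes were up-regulated and 10 pathway genes were up-regulated, in place of 1130 and 16. With limma on log2(FPKM + 0.1) the counts were 811 and 12. These fits change the unit, the scaling and the test together, and the cause was not tested. Pathway genes down-regulated, 10 at first, numbered 12 and 13 in these fits and 15 with library size only, which left 13 up-regulated. Scaling by library size only moved the median log2 fold change of all genes from -0.02 to -0.23 and gave 846 genes up-regulated and 1732 down-regulated, in place of 1130 and 1169.

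The replicate numbers are not stated to mark animals or days in common. Correlations of deviations from the group means were 0.013, 0.007 and 0.141 for same-numbered libraries. For differently numbered libraries they ran from -0.052 to 0.025. With 3 libraries a genotype, these correlations cannot decide whether the libraries were paired. With the replicate block, calls came to 1115 up-regulated and 1147 down-regulated genes, and among the 9 genes only Treml2 no longer met the thresholds. With 3 libraries a genotype, the low counts of Trem1, Trem3, Treml2 and Hcst limit what can be seen.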
